A study of Mus musculus with 96 samples.

Results

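RNA recovered by immunoprecipitation (IP) from the striatum of 3-month-old R6/2 mice was compared with input RNA, the RNA of the whole tissue, from the same genotype and age. The comparison takes every library labelled as R6/2 at 3 months, 4 of IP and 4 of input, out of 96 libraries in the series. R6/2 mice are a model of Huntington's disease that carries a fragment of the human HTT gene with an expanded CAG repeat under the human promoter. NCAR, the label of the comparison genotype, had 4 IP and 4 input libraries of the same age, and both genotypes are on a mixed CBA x C57BL/6 background. R6/2 at 1 and 2 months had 4 IP and 4 input libraries each. The striatum of all these mice, NCAR included, had received an adeno-associated virus. The labels name neither the viral cargo nor the tagged protein, and only the series title names astrocytes as the cells of interest. No label says whether the libraries of a group come from separate mice or pools, so the p-values below measure the spread between these libraries.

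In a cell-type-specific IP of this kind, a tagged protein made in a single cell type is pulled down with the RNA bound to it. RNAs used by that cell type should then be over-represented in the IP, and RNAs of its neighbours and RNAs that do not join the captured complex under-represented. Astrocytes are the glial cells that take up synaptic glutamate, buffer extracellular potassium, carry water through their endfeet and supply neurons with lactate and cholesterol. The striatum otherwise consists mainly of medium spiny neurons, with a minority of interneurons, oligodendrocytes and their precursors, microglia and vessel cells.

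The IP libraries held 48.73 to 84.2 M reads in genes and the input libraries 27.12 to 46.23 M. No 2 libraries of a group agreed within sampling noise. Among the R6/2 libraries, input replicate 4 stood apart most, with a sample weight of 0.352 where the other 7 libraries had 0.501 to 2.263. Among the NCAR libraries, IP replicate 2 had a summed level of 20 oligodendrocyte lineage genes of 4828 CPM, against 10700 to 14250 CPM in the other 3. NCAR input replicates 2 and 3 had summed levels of 15 microglial genes of 1834 and 2411 CPM, against 892.6 and 1345 CPM in NCAR input replicates 1 and 4. Levels are in CPM, counts scaled to a common library size, as mean ± SD over 4 libraries where no single values are given. Differences between groups are log2 ratios ± SE from limma fits over all genes, and a called gene is one whose p, adjusted by the Benjamini-Hochberg method, is under 0.05.

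The IP divided the striatal transcriptome almost evenly. Of 15307 genes tested, 4172 (27.3%) were higher in R6/2 IP than in R6/2 input and 4249 (27.8%) were lower, with a median log2 ratio over all genes of -0.02. The counts of called genes in each R6/2 list below are to be read beside these shares. At least 2-fold changes (log2 of 1) were found in 1843 genes (12.0%) that were higher and 1842 (12.0%) that were lower. Ratios of at least 4-fold were found in 581 genes that were higher and 644 that were lower. Astrocyte transporters and glial regulators stood at the top. Of the 15 lowest of the ranked genes, 12 are known from microglia and other myeloid cells, 2 are small structural RNAs and 1 is a fibroblast gene.

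**Figure D1:**
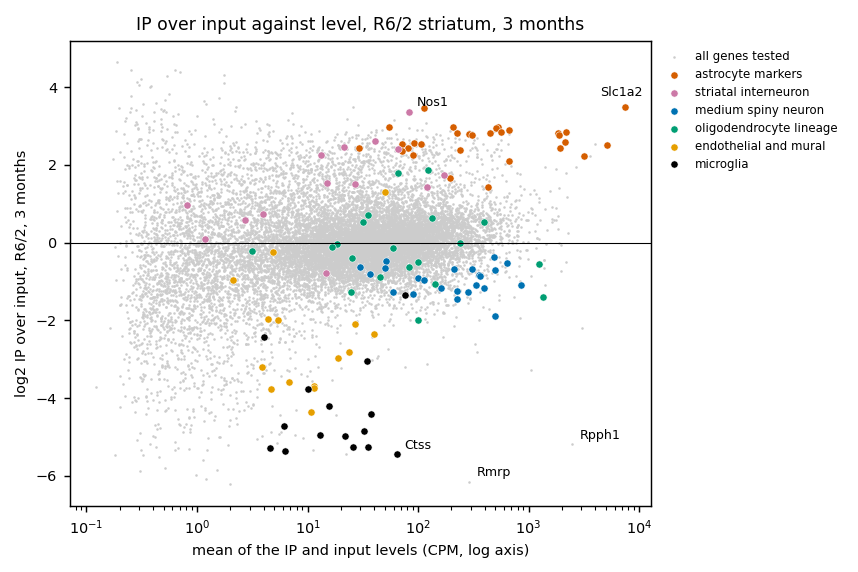
Each point is 1 of 15307 genes, with the mean of its IP and input levels in CPM on a log axis and its log2 IP over input ratio in R6/2 at 3 months on the other axis; coloured points are the members of 6 cell type lists. The 30 astrocyte markers lie between 1.44 and 3.5, and the 15 microglial genes between -5.45 and -1.35.

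Slc1a2 (chr2:102658659-102790784, mm10) encodes GLT-1, the glutamate transporter that clears most synaptic glutamate, and had the highest ratio among the ranked genes. It stood at 13710, 13270, 16030 and 11820 CPM in the 4 IP libraries, against 1225, 1427, 1254 and 963 CPM in the 4 input libraries. Every IP library was above every input library by a wide margin, and the log2 ratio was 3.5 ± 0.15, or 11.3-fold (adjusted p = 1.37e-07). Ranked genes are the 5351 called ones whose mean over the 8 libraries reached 5 CPM and whose IP and input libraries did not overlap, predicted genes left out, so that their groups are apart by that rule. At least 5351 of the 15307 genes tested thus had groups apart. Groups said to be apart below therefore do not mark out a gene or a list.

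The next genes in rank were not all classical markers. Tead1 (chr7:112679318-112906807), a DNA-binding partner of the Hippo pathway effector YAP, stood at 50.6, 40.7, 61.3 and 38.1 CPM in IP, against 4.24, 3.97, 4.74 and 3.77 CPM in input. Atp1b2 (chr11:69599736-69605942), the glial beta subunit of the sodium pump, stood at 197, 179, 200.4 and 258 CPM in IP, against 16.0, 19.4, 26.4 and 15.4 CPM in input. In both genes the lowest IP library lay far above the highest input library, with ratios of 3.49 ± 0.16 and 3.46 ± 0.18 (adjusted p = 1.88e-07 and 2.36e-07). Nos1 (chr5:117781032-117958840), neuronal nitric oxide synthase and a marker of a class of striatal interneurons, came next with 138, 127, 219 and 124 CPM in IP, against 20.2, 11.6, 14.9 and 11.9 CPM in input. Its ratio of 3.37 ± 0.22 was the highest of any neuronal gene named here (adjusted p = 7.51e-07). Gpc4, a glypican that astrocytes release to promote excitatory synapses, followed at 3.33 ± 0.20 with 13.3 ± 2.52 CPM in IP and 1.31 ± 0.2 CPM in input.

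The other 10 of the 15 highest genes were 5 developmental regulators and 5 genes of metabolism, transport and coupling. Rorb, a nuclear receptor, had a ratio of 3.08 ± 0.17, Gli2, a Hedgehog pathway factor, 2.99 ± 0.22 and Sox9, a determinant of glial fate, 2.99 ± 0.19. The planar polarity cadherin Celsr1 stood at 109 ± 26.5 CPM in IP and 12.1 ± 2.20 CPM in input (3.15 ± 0.19) and the transcription factor Tfcp2l1 at 40.6 ± 7.99 CPM in IP and 4.53 ± 1.38 CPM in input (3.18 ± 0.21). Heph, the membrane ferroxidase hephaestin that lets iron leave cells, was 8.12-fold higher in IP (3.02 ± 0.17). The arylamine acetyltransferase Nat1 and the secreted enzyme Pm20d1, which couples fatty acids to amino acids, had ratios of 3.16 ± 0.25 and 3.05 ± 0.44. Pm20d1 was the most variable of the 15, with 6.15, 14.4, 13.5 and 18.8 CPM in IP, against 2.19, 1.61, 2.15 and 0.623 CPM in input, and its groups did not overlap. Gja1, the main gap junction protein of astrocytes, and Aldh1l1, a folate enzyme widely used as an astrocyte marker, closed the list at 2.97 ± 0.13 and 2.97 ± 0.15.

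**Figure D2:**
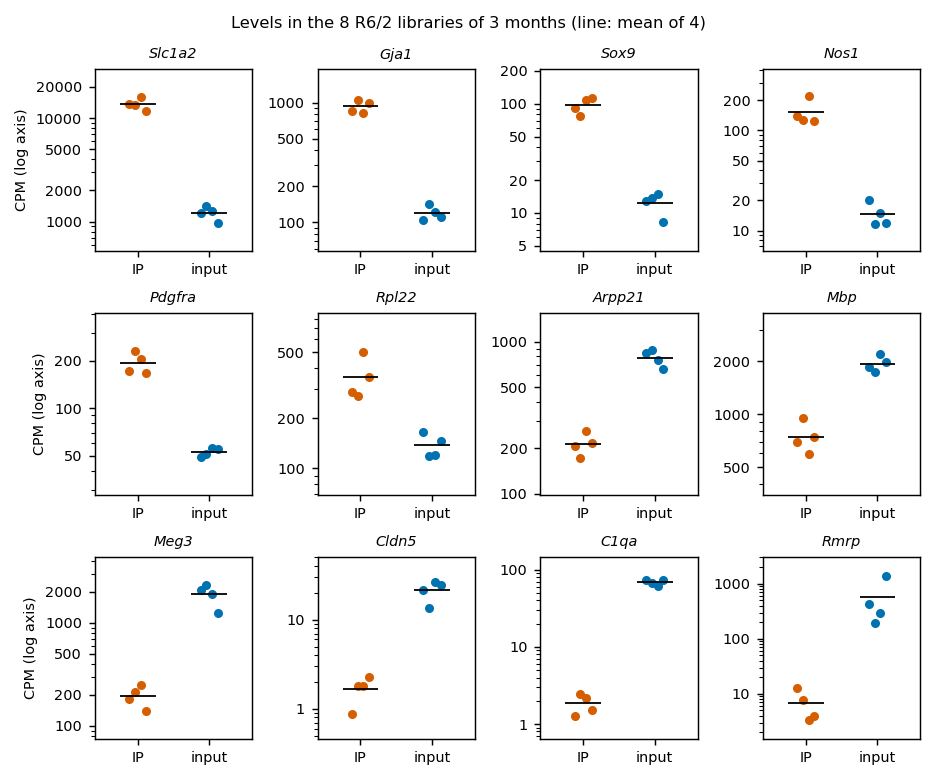
Each panel shows 1 gene in the 8 R6/2 libraries of 3 months, with the 4 IP libraries on the left, the 4 input libraries on the right, CPM on a log axis and a line at the mean of each group. Slc1a2, Gja1, Sox9, Nos1, Pdgfra and Rpl22 are higher in every IP library than in any input library, and Arpp21, Mbp, Meg3, Cldn5, C1qa and Rmrp are lower in every IP library.

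Genes of neurotransmitter clearance rose together in IP. All 10 measured members were called higher with a median log2 ratio of 2.27, beside -0.02 over all genes. Their summed level was 25230 to 30410 CPM in the IP libraries and 3990 to 4933 CPM in the input libraries. The second astrocytic glutamate transporter Slc1a3 (GLAST) stood at 2557, 3358, 3449 and 3609 CPM in IP, against 458, 519, 449.9 and 407 CPM in input. The lowest IP library was several times the highest input library, at 2.82 ± 0.13 (adjusted p = 1.88e-07). The GABA transporter Slc6a11 (GAT-3) had 541 ± 118 CPM in IP and 78.0 ± 8.33 CPM in input (2.77 ± 0.15). Glul, glutamine synthetase, averaged 5220 ± 1081 CPM in IP and 1115 ± 182 CPM in input (2.22 ± 0.17). The smallest ratio of the group was that of Abat, which breaks down GABA, at 1.26 ± 0.10.

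The glutamate transporter family was spread over a wide range. Slc1a2 and Slc1a3 were followed by Slc1a4, a transporter of neutral amino acids, at 1.83 ± 0.12. The neuronal transporter Slc1a1 (EAAC1) stood at 129.5, 117, 116 and 105 CPM in IP, against 122, 126, 129 and 118 CPM in input, with overlapping groups and a ratio of -0.09 ± 0.09 (adjusted p = 0.431). Slc1a6, a transporter of Purkinje cells, had a ratio of 0.44 ± 0.22 (adjusted p = 0.121) in the fit of 8 libraries, but 0.63 with adjusted p = 0.0192 without input replicate 4.

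Ion and water homeostasis was represented by 14 genes, of which 12 were higher and none lower, with a median of 2.24. With any 1 library left out 11 were higher. The sum of the list was 6842 to 9155 CPM in the IP libraries and 1324 to 1477 CPM in the input libraries. Kcnj10, the inward rectifier Kir4.1 that takes up potassium, stood at 311, 335, 426 and 517 CPM in IP, against 53.5, 55.6, 74.0 and 41.0 CPM in input. The groups were far apart, at 2.83 ± 0.20. Aqp4, the water channel of astrocyte endfeet, reached 779.5 ± 167 CPM in IP and 109.6 ± 14.9 CPM in input (2.82 ± 0.16). Of the other beta subunits of the sodium pump, Atp1b3 was higher by 0.47 ± 0.12. Atp1b1 had overlapping groups and a ratio of 0.01 ± 0.09 (adjusted p = 0.91), and its sign turned with the scaling of the deposited table (-0.02). Clcn2, a chloride channel, had 28.6 ± 6.05 CPM in IP and 33.5 ± 5.397 CPM in input and was not called.

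Gap junction and adhesion genes were higher in all 10 measured cases, with a median of 1.98. Gja1 (chr10:56377330-56402513) had 863, 1063, 819 and 1003 CPM in IP, against 104, 143, 122 and 110 CPM in input, a ratio of 2.97 ± 0.13 (adjusted p = 1.46e-07) and with every IP library far above the input libraries. Gjb6, its partner connexin 30, averaged 119 ± 24.4 CPM in IP and 23.1 ± 4.03 CPM in input (2.36 ± 0.16).

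Genes of synapse-acting secreted factors, through which astrocytes shape synapses, had 13 of 16 members higher and 1 lower (median 2.19). Sparcl1, or hevin, stood at 5159, 6980, 6688 and 8643 CPM in IP, against 1159, 1385, 1275 and 907 CPM in input. Every IP library was well above the input libraries (2.53 ± 0.18). The thrombospondins, which promote excitatory synapses, stood on both sides. Thbs4 had 36.5, 30.6, 14.4 and 21.7 CPM in IP, against 2.77, 4.61, 3.80 and 5.08 CPM in input (2.62 ± 0.29). Thbs3 was the member that went the other way, with 6.16, 7.16, 4.63 and 6.17 CPM in IP, against 13.2, 11.6, 12.7 and 13.9 CPM in input and a ratio of -1.10 ± 0.16 (adjusted p = 0.000167).

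Calcium and receptor signalling genes were mixed. Of 19 tested members 11 were higher and 1 lower, beside 27.3% and 27.8% of all genes, with a median of 0.59. The prosaposin receptor Gpr37l1, at 849.9 ± 197 CPM in IP and 117 ± 33.7 CPM in input, and the endothelin receptor Ednrb, at 538 ± 129.8 CPM in IP and 89.5 ± 15.7 CPM in input, had ratios of 2.87 ± 0.22 and 2.57 ± 0.18. Of the receptors that release calcium from the endoplasmic reticulum, Itpr2, the form that carries most astrocyte calcium release, had 119.6, 159, 195 and 163 CPM in IP, against 41.6, 31.5, 34.8 and 23.9 CPM in input, with the groups apart (2.28 ± 0.18). Itpr1, abundant in neurons, had 1075, 880, 1097 and 556 CPM in IP, against 977, 833, 812 and 836 CPM in input, with overlapping groups (0.02 ± 0.20, adjusted p = 0.953). Its sign turned with the scaling of the deposited table (-0.01) and without IP replicate 1 (-0.08) or 3 (-0.09). The beta-adrenergic receptor Adrb1 was the 1 lower member, at -0.48 ± 0.12 (adjusted p = 0.00546), and without IP replicate 1 another member was lower too.

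Lipid and cholesterol genes were higher in 22 of 25 cases and lower in none, with a median of 0.84. Apoe, the lipid carrier that astrocytes secrete, stood at 7442, 8983, 7505 and 11300 CPM in the 4 IP libraries, against 1491, 1603, 1476 and 1537 CPM in the 4 input libraries. The IP libraries ranged more widely than the input libraries, and the groups were well apart (2.51 ± 0.14, adjusted p = 3.95e-07). Scd2, a fatty acid desaturase, had 4235 ± 261 CPM in IP and 1107 ± 40.2 CPM in input (1.93 ± 0.10). Among the fatty acid binding proteins, Fabp5 and the radial glial form Fabp7 were higher (1.5 ± 0.23 and 1.42 ± 0.18), and Fabp3 was lower with 6.65, 6.82, 6.49 and 8.11 CPM in IP, against 12.2, 12.1, 14.2 and 13.3 CPM in input (-0.89 ± 0.13, adjusted p = 0.000219).

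Genes of glycogen, glucose and lactate had 15 of 19 members higher and 1 lower, with a median of 1.02. Aldoc, the brain aldolase enriched in astrocytes, stood at 2841, 3760, 3120 and 3370 CPM in IP, against 510.4, 508, 392 and 527 CPM in input, at 2.76 ± 0.13. Its ubiquitous relative Aldoa was higher by only 0.54 ± 0.12, with 1924 ± 174 CPM in IP and 1327 ± 149.9 CPM in input. The brain glycogen phosphorylase Pygb averaged 1105 ± 215 CPM in IP and 188 ± 28.4 CPM in input (2.54 ± 0.15). Hexokinase 2, Hk2, was the lower member with 2.37, 2.54, 1.53 and 1.97 CPM in IP, against 4.17, 3.13, 4.30 and 6.396 CPM in input (-1.07 ± 0.26, adjusted p = 0.0046).

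Transcription factors of glia had 22 of 24 members higher and none lower (median 2.05). Sox9 (chr11:112782224-112787760) had 91.5, 76.4, 108 and 113 CPM in IP, against 12.8, 13.7, 14.8 and 8.21 CPM in input, with input replicate 4 the lowest of its group and all IP libraries far above (2.99 ± 0.19, adjusted p = 7.58e-07). Nfia, which starts astrocyte differentiation, averaged 128 ± 26.7 CPM in IP and 27.3 ± 6.82 CPM in input (2.25 ± 0.21). Id4, an inhibitor of helix-loop-helix factors, had a smaller ratio of 0.97 ± 0.11.

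The 3 metallothioneins, small metal-binding proteins, were all higher, Mt1 at 1.5 ± 0.24, Mt2 at 1.99 ± 0.16 and the brain form Mt3 at 1.20 ± 0.22. The NDRG family divided. Ndrg2, an astrocyte gene, had 2622, 4044, 3451 and 4647 CPM in IP, against 560.3, 737, 630.2 and 490.4 CPM in input (2.60 ± 0.18). Ndrg3 and Ndrg4 had overlapping groups, with ratios of 0.07 ± 0.11 and -0.06 ± 0.14 (adjusted p = 0.619 and 0.735), and with sample weights the signs of both turned (-0.04 and 0.10). Without IP replicate 4 Ndrg4 was at 0.02 and without input replicate 4 at 0.04. Ndrg1, which is prominent in oligodendrocytes, was lower at -0.36 ± 0.12 (adjusted p = 0.026), a call lost without any one of 6 of the 8 libraries (-0.30 to -0.35, all but IP replicate 2 and input replicate 4). The call of Ndrg1 was also lost in the limma fits of all 4 groups of 3 months and of 8 groups (adjusted p = 0.27 and 0.281).

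**Figure D3:**
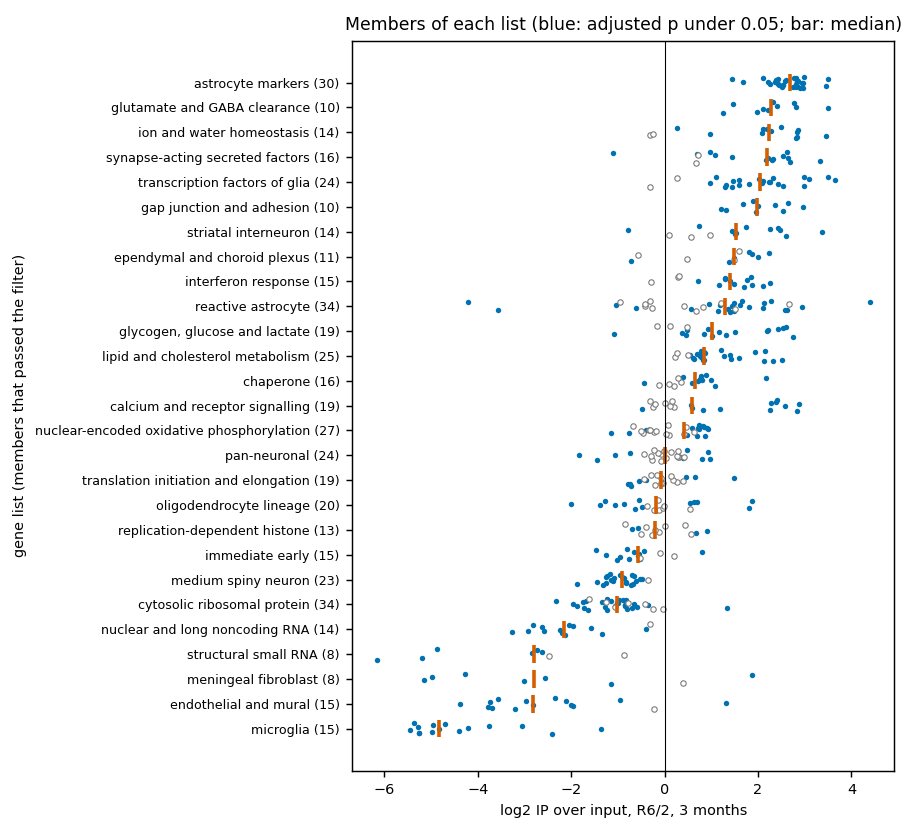
Each row is a gene list with the number of its members that passed the filter, each point a member placed by its log2 IP over input ratio in R6/2 at 3 months, filled blue where called and open where not, with a bar at the list median. The medians run from -4.84 in microglial genes to 2.68 in astrocyte markers, and some lists, among them reactive astrocyte genes, spread over both sides of 0.

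The cell types of the striatum were separated in a graded way. In bulk RNA fewer cells of a type and less RNA per cell cannot be told apart, and this holds for every cell type list below. All 30 astrocyte markers were higher in IP (median 2.68), and their summed level was 47590 to 61030 CPM in the IP libraries and 7524 to 9056 CPM in the input libraries. The intermediate filament gene Gfap had 787, 1185, 745 and 919.7 CPM in IP, against 124, 122, 108 and 108 CPM in input (2.95 ± 0.14). The lowest ratio in the list was that of S100b, a calcium-binding protein, with 466, 555, 645 and 863 CPM in IP, against 219, 227, 258 and 205 CPM in input (1.44 ± 0.17).

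Medium spiny neuron genes were lower but still abundant in IP. None of the 23 that passed the filter was higher and 22 were lower, with a median of -0.92, and their sum was 3855 to 4895 CPM in the IP libraries and 7599 to 8855 CPM in the input libraries. Arpp21, a cAMP-regulated phosphoprotein of these cells, stood at 206, 171, 259 and 217 CPM in IP, against 845, 884, 753 and 658 CPM in input. The highest IP library was far below the lowest input library (-1.89 ± 0.14, adjusted p = 1.84e-06). The dopamine receptor Drd2 averaged 34.6 ± 6.97 CPM in IP and 83.1 ± 16.6 CPM in input (-1.26 ± 0.18). Pde10a, the striatal phosphodiesterase, was the member not called, at -0.36 ± 0.15 (adjusted p = 0.06). It was called at -0.45 without IP replicate 1 (adjusted p = 0.0354) and at -0.45 without IP replicate 3 (adjusted p = 0.0261), and at -0.39 with the scaling as deposited.

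Pan-neuronal genes did not move as a group. Of 24 genes 5 were higher and 4 lower, no larger shares than over all genes (27.3% and 27.8%). The median was 0.01 and the mean -0.06, of opposite sign. At the low end stood Nrgn, a calmodulin-binding protein whose mRNA travels into dendrites, with 54.0, 48.2, 65.0 and 74.98 CPM in IP, against 262, 252, 214 and 144 CPM in input. The highest IP library was below the lowest input library (-1.83 ± 0.20). Dlg4, the scaffold PSD-95, had 159 ± 22.0 CPM in IP and 434 ± 63.7 CPM in input (-1.45 ± 0.14). At the high end, the vesicle protein Syn1 averaged 172 ± 41.6 CPM in IP and 89.3 ± 16.7 CPM in input (0.93 ± 0.20) and the RNA-binding protein Elavl2 80.6 ± 13.9 CPM in IP and 40.8 ± 3.56 CPM in input (0.97 ± 0.13).

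Striatal interneuron genes were higher in most cases. Of 14 genes 10 were higher and 1 lower, with a median of 1.52. Genes of cholinergic interneurons stood high. Chat, which makes acetylcholine, had 58.6, 75.3, 67.4 and 81.8 CPM in the 4 IP libraries, against 10.5, 10.9, 13.9 and 11.1 CPM in the 4 input libraries. The choline transporter Slc5a7 averaged 112 ± 14.3 CPM in IP and 21.1 ± 4.47 CPM in input. Neither overlapped between groups, with ratios of 2.60 ± 0.14 and 2.42 ± 0.16 (adjusted p = 2.38e-07 and 8.02e-07).

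The neuropeptides of the Nos1 interneurons were higher too, with more spread. Sst had 174, 175.4, 359 and 367 CPM in IP, against 99.0, 84.3, 79.2 and 48.4 CPM in input. IP replicates 3 and 4 had the higher levels and IP replicates 1 and 2 the lower, and all were above the input libraries (1.74 ± 0.29). Npy had 97.1, 114, 277 and 215 CPM in IP, against 82.0, 77.6, 60.0 and 32.3 CPM in input (1.44 ± 0.36). Pvalb, the calcium buffer of fast-spiking interneurons, was the lower member at -0.78 ± 0.28 (adjusted p = 0.0387), with overlapping groups. That call was lost without any one of IP replicates 1, 2 and 3 or input replicates 1 and 2, where the ratio was -0.54 to -0.76.

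Oligodendrocyte lineage genes stood on both sides. Of 20 genes 5 were higher and 8 lower, beside 27.3% and 27.8% of all genes, with a median of -0.19, and 5 were lower without input replicate 2. The 2 markers of precursor cells stood at the top. Pdgfra, the growth factor receptor of these precursors, had 172, 232, 206 and 167 CPM in IP, against 48.7, 51.4, 55.9 and 54.7 CPM in input, and the proteoglycan Cspg4 (NG2) had 90.2, 121, 99.5 and 94.7 CPM in IP, against 28.3, 26.3, 28.1 and 33.4 CPM in input. Their ratios were 1.87 ± 0.12 and 1.80 ± 0.12 (adjusted p = 6.94e-07 and 9.27e-07), with the groups wholly apart.

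The other 3 genes called higher were the lineage transcription factors Olig2 (0.70 ± 0.17) and Olig1 (0.62 ± 0.15) and Myrf, the factor that drives myelin genes, with 42.0, 38.9, 36.0 and 32.8 CPM in IP, against 26.8, 24.0, 28.6 and 23.8 CPM in input (0.53 ± 0.12, adjusted p = 0.00254). The call of Myrf was lost in the fits of 4 and 8 groups (adjusted p = 0.117 and 0.121). Genes of mature oligodendrocytes were thus not all lower. Cnp, an enzyme of myelin, had 497, 698, 319 and 375 CPM in IP, against 261, 267, 296 and 455 CPM in input, with overlapping groups and a ratio of 0.54 ± 0.25 (adjusted p = 0.0869), and it was called higher at 0.71 without IP replicate 3 (adjusted p = 0.0288) and at 0.73 without input replicate 4 (adjusted p = 0.0148).

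Among the 8 lower members were 3 genes of myelin proteins. Mobp had 39.1, 53.0, 34.1 and 34.8 CPM in IP, against 161, 149.7, 155 and 168 CPM in input, Mbp 696, 946, 597 and 746 CPM in IP, against 1842, 1735, 2183 and 1973 CPM in input and Mog 35.4, 48.4, 23.7 and 23.1 CPM in IP, against 49.4, 49.0, 60.4 and 72.05 CPM in input. None of the 3 overlapped between groups, as in at least 5351 of all 15307 genes tested, with ratios of -2.0 ± 0.14, -1.39 ± 0.14 and -0.87 ± 0.23.

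Microglial genes were lowest. All 15 were lower in IP with a median of -4.84, and their sum was 62.89 to 85.79 CPM in the IP libraries and 639.9 to 800.8 CPM in the input libraries. Ctss, a lysosomal protease (chr3:95526786-95556403), stood at 2.05, 3.89, 4.05 and 2.03 CPM in the 4 IP libraries, against 143, 108, 110.4 and 142 CPM in the 4 input libraries. This is a 43.7-fold lower level in IP (-5.45 ± 0.24, adjusted p = 1.73e-07). C1qa, C1qb and C1qc, the 3 chains of the complement initiator C1q, had ratios of -5.25 ± 0.21, -5.26 ± 0.28 and -4.99 ± 0.25. C1qa had 1.26, 2.48, 2.20 and 1.51 CPM in IP, against 73.0, 67.1, 61.1 and 73.7 CPM in input. The fractalkine receptor Cx3cr1 was 28.6-fold lower in IP, with 2.01, 2.89, 2.15 and 1.78 CPM in IP, against 64.8, 56.0, 57.5 and 72.3 CPM in input (-4.84 ± 0.17). P2ry12, the purinergic receptor of resting microglia, was less far down at -3.05 ± 0.14.

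Besides Ctss and the C1q chains, 8 of the 15 genes with the lowest ratios were microglial or myeloid. They were Selplg, a selectin ligand (-5.43 ± 0.17), the adaptor Tyrobp (-5.37 ± 0.28), Ly86, a partner of a Toll-like receptor homologue (-5.33 ± 0.30), the Fc receptor Fcgr3 (-5.02 ± 0.27), the receptor Gpr34 (-4.96 ± 0.29), the marker Tmem119 (-4.95 ± 0.20), the membrane-shaping protein Bin2 (-4.93 ± 0.23) and the lysosomal exonuclease Pld4 (-4.87 ± 0.29). Tmem119 was at 0.825, 0.708, 0.765 and 0.833 CPM in IP, against 22.3, 19.8, 22.2 and 35.6 CPM in input.

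The promoters of the genes at the 2 ends were read from RefSeq (GRCm38.p6, the mm10 assembly), each from 250 bases before to 50 bases after the start. Of the tested genes 11345 had an entry. Of the 8 motifs searched on both strands, 5 were GAGGAAGT (a form of the site of PU.1, the myeloid master factor), AAAGTTT (the MYT family), GGAATGT (the TEAD family), and ACAATGG with the longer AACAATGG that contains it (SOX factors). The other 3 were the nuclear factor I palindrome, its shorter core, which the longer form contains, and the RFX palindrome. GAGGAAGT was in 2.7% of all 11345 promoters, in 8.1% of the 419 of genes at least 4-fold lower in IP and in 2.1% of the 427 of genes at least 4-fold higher. AAAGTTT was in 3.5% of all promoters, 3.3% of the lower set and 7.3% of the higher set. The core of the nuclear factor I palindrome was in 0.8% of all promoters, 1.0% of the lower set and 1.6% of the higher set, and GGAATGT in 2.6%, 3.3% and 3.7%. ACAATGG was in 1.9% of all promoters and 2.1% of each set, and AACAATGG in 0.6% and 0.7%. The long nuclear factor I and RFX palindromes were in 5 promoters each. Among the 15 lowest genes 6 had an entry, and 3 of these held GAGGAAGT. These 3 are shown as the promoters of that end that held the motif. Of the 15 highest genes 8 had an entry, none of which held GAGGAAGT, and Gja1 is shown because it held AAAGTTT. It was the 1 gene of these 8 that did. AAAGTTT was also in 1 of the 6 lowest genes with an entry, Ctss, where its reverse complement is left in small letters. Capitals mark GAGGAAGT or its reverse complement in the first 3 and AAAGTTT or its reverse complement in Gja1. A match is a description of the letters and was not tested as a site.
Ctss, chr3:95526536-95526835, + strand: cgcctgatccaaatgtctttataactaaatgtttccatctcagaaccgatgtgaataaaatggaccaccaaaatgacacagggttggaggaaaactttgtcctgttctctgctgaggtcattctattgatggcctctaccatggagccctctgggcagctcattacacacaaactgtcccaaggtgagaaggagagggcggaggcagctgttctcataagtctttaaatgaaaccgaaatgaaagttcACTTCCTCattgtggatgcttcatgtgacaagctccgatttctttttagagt
C1qc, chr4:136892865-136893164, - strand: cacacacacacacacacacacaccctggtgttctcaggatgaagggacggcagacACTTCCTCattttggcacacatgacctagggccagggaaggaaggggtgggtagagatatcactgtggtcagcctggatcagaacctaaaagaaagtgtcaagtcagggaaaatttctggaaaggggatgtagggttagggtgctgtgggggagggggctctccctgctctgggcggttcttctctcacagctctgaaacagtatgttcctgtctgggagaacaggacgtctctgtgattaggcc
Pld4, chr12:112760405-112760704, + strand: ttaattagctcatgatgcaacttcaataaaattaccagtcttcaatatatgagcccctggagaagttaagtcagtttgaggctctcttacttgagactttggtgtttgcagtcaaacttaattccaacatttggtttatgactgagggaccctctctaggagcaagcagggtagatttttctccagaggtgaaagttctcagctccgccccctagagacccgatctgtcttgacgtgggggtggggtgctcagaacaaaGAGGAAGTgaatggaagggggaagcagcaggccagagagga
Gja1, chr10:56377050-56377349, + strand: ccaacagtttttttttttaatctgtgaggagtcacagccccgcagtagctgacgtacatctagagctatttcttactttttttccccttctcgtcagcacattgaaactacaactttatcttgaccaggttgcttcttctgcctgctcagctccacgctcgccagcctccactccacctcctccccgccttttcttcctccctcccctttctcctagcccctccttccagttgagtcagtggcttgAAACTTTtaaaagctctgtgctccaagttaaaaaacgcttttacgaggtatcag

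Vessel genes were also depleted. Of 15 endothelial and mural genes 13 were lower and 1 higher, with a median of -2.81. Cldn5, the tight junction protein of the blood-brain barrier, had 0.876, 1.79, 1.81 and 2.27 CPM in IP, against 21.6, 13.6, 26.4 and 24.2 CPM in input. Pecam1, an adhesion protein of endothelium, averaged 1.62 ± 0.512 CPM in IP and 21.2 ± 4.25 CPM in input, and Rgs5, a pericyte gene, 10.2 ± 2.13 CPM in IP and 43.3 ± 4.45 CPM in input. The groups of these 3 genes did not overlap, as in at least 5351 of all 15307 genes tested (-3.70 ± 0.30, -3.74 ± 0.25 and -2.10 ± 0.16). The exception was Pdgfrb, a growth factor receptor that marks pericytes, with 64.7, 79.9, 64.2 and 79.8 CPM in IP, against 26.7, 27.9, 36.0 and 26.4 CPM in input. The lowest IP library was well above the highest input library (1.31 ± 0.13, adjusted p = 1.57e-05).

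Meningeal fibroblast genes had 6 of 8 members lower and 1, Pdgfra, higher. Dcn, the matrix proteoglycan decorin and 1 of the 15 lowest genes, averaged 0.341 ± 0.236 CPM in IP and 10.3 ± 2.85 CPM in input (-5.16 ± 0.51). Ependymal and choroid plexus genes had 6 of 11 tested members higher and 1 lower, beside 27.3% and 27.8% of all genes (median 1.49). With 1 library left out 4 to 7 were higher. Among the higher members was Foxj1, the factor for motile cilia, with 40.8, 54.1, 32.6 and 78.1 CPM in IP, against 11.1, 10.9, 16.0 and 11.6 CPM in input (1.99 ± 0.24). The sum of that list was 114.7 to 144.3 CPM in the IP libraries and 47.58 to 100.4 CPM in the input libraries. Of 6 blood genes 1, the haem synthesis enzyme Alas2, passed the filter on low counts.

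Reactive astrocyte genes, a set known from injury and inflammation, were mixed. Of 34 tested members 19 were higher and 4 lower, beside 27.3% and 27.8% of all genes, with a median of 1.29. With 1 library left out 15 to 20 were higher and 3 to 4 lower. Serpina3n, a secreted protease inhibitor, had 51.8, 63.6, 51.4 and 70.2 CPM in IP, against 12.6, 9.25, 18.5 and 15.4 CPM in input (2.12 ± 0.20), Vim, vimentin, averaged 223 ± 43.8 CPM in IP and 45.9 ± 5.50 CPM in input (2.27 ± 0.14), and the hyaluronan receptor Cd44 18.7 ± 4.89 CPM in IP and 3.04 ± 0.755 CPM in input (2.62 ± 0.24). The largest falls were those of Srgn and Cd14, a granule proteoglycan and an endotoxin co-receptor that myeloid cells express. Srgn had 0.155, 0.708, 0.556 and 0.72 CPM in IP, against 10.9, 10.7, 8.77 and 5.36 CPM in input and Cd14 0.116, 0.373, 0.394 and 0.341 CPM in IP, against 3.55, 2.76, 3.78 and 3.38 CPM in input. The groups were apart in both, at -4.21 ± 0.47 and -3.57 ± 0.40, and the 15 microglial genes, at a median of -4.84, were lower in the same libraries. The part of microglial RNA in these values was not tested.

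Interferon response genes had 12 of 15 tested members higher and none lower, beside 27.3% and 27.8% of all genes (median 1.41). Ifit3, an antiviral effector, stood at 73.3, 101.2, 94.2 and 97.8 CPM in IP, against 20.1, 18.3, 19.8 and 18.0 CPM in input. The 4 IP libraries were close to each other and far above input (2.26 ± 0.12, adjusted p = 2.54e-07). The guanylate-binding protein Gbp2 averaged 53.4 ± 21.6 CPM in IP and 11.8 ± 3.11 CPM in input (2.11 ± 0.30).

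Immediate early genes, which neurons switch on with activity, were lower in 11 of 15 cases, beside 27.8% of all genes (median -0.56). With 1 library left out 8 to 10 were lower. In NCAR 5 of 15 were lower, beside 27.7% of all genes in NCAR (median -0.67). Arc, a synaptic protein, had 33.2, 38.4, 36.2 and 47.0 CPM in IP, against 65.1, 90.5, 95.9 and 63.1 CPM in input (-1.01 ± 0.16). Jun was the 1 higher member, with 34.8, 45.4, 44.4 and 52.5 CPM in IP, against 28.2, 28.1, 23.8 and 21.9 CPM in input (0.79 ± 0.14, adjusted p = 0.000872). Chaperone genes had 10 of 16 members higher and 1 lower, beside 27.3% and 27.8% of all genes (median 0.65). They were led by the small heat shock protein Hspb8 with 42.3 ± 7.83 CPM in IP and 9.32 ± 0.703 CPM in input (2.16 ± 0.15).

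Htt (chr5:34761740-34912534), the mouse huntingtin gene, was higher in IP. It stood at 478, 397, 432 and 243 CPM in the 4 IP libraries, against 237, 183, 200.7 and 217 CPM in the 4 input libraries. IP replicate 4 was close to the highest input library and the other 3 IP libraries were well above, at 0.85 ± 0.19 or 1.80-fold (adjusted p = 0.00317). Whether reads of the human transgene fragment were counted in this gene was not analysed here.

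RNAs that are not translated were the other low group. Polyadenylated RNA was sequenced, and what that selection does to the levels of these RNAs was not tested. Rmrp, the RNA of the RNase MRP ribonucleoprotein, had the lowest ratio of all ranked genes. It stood at 12.7, 7.65, 3.31 and 3.92 CPM in the 4 IP libraries, against 422, 189.6, 294 and 1396 CPM in the 4 input libraries. The groups did not overlap, but the 4 input libraries spanned 189.6 to 1396 CPM, and the ratio of -6.16 ± 0.58 has the largest error but 1 among the 15 lowest genes (adjusted p = 9.4e-06). Its sequence in the GENCODE annotation (GRCm38, chr4:43492788-43493058, - strand) is shown because it is the gene at this end of the scale. It is only 271 bases long, and a transcript annotated to Ccdc107 overlaps it on the opposite strand. The sources used here do not say whether the counting used strand, so reads of the 2 cannot be told apart.
Rmrp: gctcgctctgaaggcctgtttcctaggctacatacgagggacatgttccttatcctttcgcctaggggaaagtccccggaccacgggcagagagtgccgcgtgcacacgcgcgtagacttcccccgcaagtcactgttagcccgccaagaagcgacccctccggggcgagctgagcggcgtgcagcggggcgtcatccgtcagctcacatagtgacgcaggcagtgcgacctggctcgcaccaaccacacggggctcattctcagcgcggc

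Rpph1, the RNA of RNase P, had 144, 27.2, 198 and 331 CPM in IP, against 7016, 3401, 4120 and 4594 CPM in input (-5.19 ± 0.61, adjusted p = 4.84e-05). Of 8 tested structural small RNAs 6 were lower and none higher (median -2.79). Of 14 tested nuclear and long noncoding RNAs 13 were lower and none higher (median -2.16). Meg3, an imprinted noncoding RNA of neurons, had 184, 213, 248 and 138 CPM in IP, against 2093, 2359, 1902 and 1253 CPM in input. Rian, from the same imprinted region, averaged 92.8 ± 26.1 CPM in IP and 561 ± 90.9 CPM in input, and Malat1, the abundant RNA of nuclear speckles, 1093 ± 278 CPM in IP and 4947 ± 1087 CPM in input. The groups of these 3 RNAs were apart, as in at least 5351 of all 15307 genes tested, with ratios of -3.27 ± 0.22, -2.62 ± 0.19 and -2.19 ± 0.22.

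The annotation allowed the same comparison across all genes. Of the 15307 tested genes 14569 (95.2%) matched 1 gene of GENCODE vM21. Among 13863 protein-coding genes 28.6% were higher and 26.0% lower, with a median of 0.01. Among 502 long noncoding genes 6.6% were higher and 61.4% lower, with a median of -1.12. Among 100 small noncoding genes 3.0% were higher and 64.0% lower, with a median of -1.92. Pseudogenes lay between, with 14.4% of 104 higher, 35.6% lower and a median of -0.34.

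**Figure D4:**
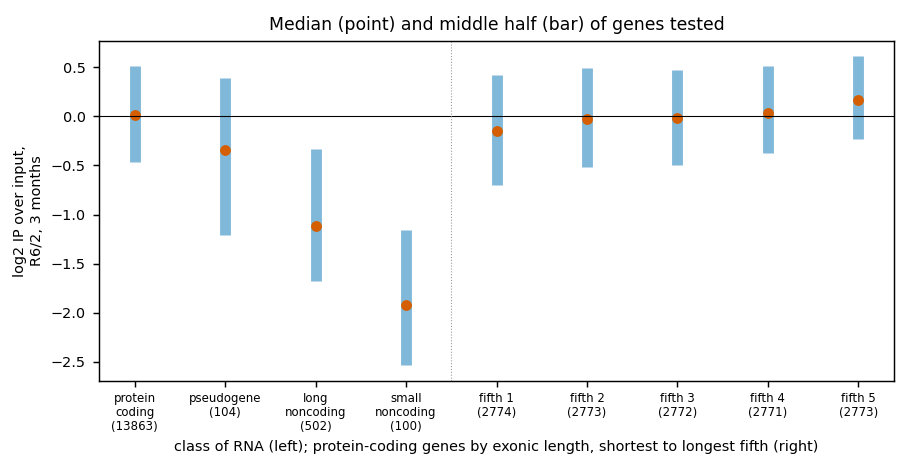
Points are medians and bars the interquartile range of the log2 IP over input ratios in R6/2 at 3 months, on the left for 4 classes of RNA and on the right for protein-coding genes in 5 equal groups of exonic length from shortest to longest, with the number of genes under each. The median is 0.01 in protein-coding, -1.12 in long noncoding and -1.92 in small noncoding genes, and is -0.15 in the shortest and 0.17 in the longest group.

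Length moved with the ratio to a small degree. Protein-coding genes were split into 5 equal groups by exonic length. In the shortest, up to 2572 bases, 20.1% were higher and 31.0% lower (median -0.15). In the longest, from 7715 bases, 38.6% were higher and 18.5% lower (median 0.17). Across 13863 protein-coding genes Pearson's r between log2 length and the ratio was 0.12, a description, since genes of 1 library share its depth and fragment sizes. Its part in any list above was not tested.

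Ribosomal protein genes, which are short and highly translated, were lower as a class, with 1 exception. Of 34 genes 26 were lower and 1 higher (median -1.01), and 20 were lower without input replicate 4 (median -0.72). Rplp1 had 42.4, 61.2, 29.7 and 56.3 CPM in IP, against 203, 156, 126 and 249.9 CPM in input (-1.96 ± 0.25), Rps20 averaged 18.8 ± 4.89 CPM in IP and 62.9 ± 28.2 CPM in input (-1.69 ± 0.28) and Rpl4 277 ± 39.3 CPM in IP and 497 ± 71.6 CPM in input (-0.84 ± 0.13). Many of these genes have processed pseudogenes, and how the authors treated shared reads is not given in the sources used here. The exception was Rpl22 (chr4:152325742-152334071), the ribosomal protein that carries the epitope tag in the RiboTag method. It stood at 287, 273, 501 and 356 CPM in the 4 IP libraries, against 167, 119, 120.2 and 146 CPM in the 4 input libraries. Every IP library was above every input library, at 1.33 ± 0.19 (adjusted p = 0.000173). The labels do not name the tagged protein here, and whether reads of the viral cargo were counted in Rpl22 was not analysed.

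Nuclear-encoded oxidative phosphorylation genes spread to both sides, with 11 of 27 higher and 3 lower, beside 27.3% and 27.8% of all genes (median 0.41). Sdha, the flavoprotein of succinate dehydrogenase, averaged 789 ± 70.6 CPM in IP and 418 ± 37.5 CPM in input (0.92 ± 0.10), and Cox7c, a small subunit of cytochrome oxidase, 4.99 ± 1.65 CPM in IP and 11.2 ± 4.54 CPM in input (-1.15 ± 0.33). The count of lower genes was 1 without IP replicate 1, IP replicate 2, input replicate 1 or input replicate 2, and 5 without IP replicate 4. Of 19 translation factors 3 were higher and 5 lower, no larger shares than over all genes (27.3% and 27.8%; median -0.07), among them the scaffold Eif4g1 at 0.66 ± 0.10 and the elongation factor Eef1a1 at -0.72 ± 0.12. Without input replicate 4, 8 of the 19 were lower.

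The same comparison in NCAR of the same age gave a very similar division. Of 15383 genes 4454 (29.0%) were higher in NCAR IP and 4261 (27.7%) lower. Of the genes at least 2-fold higher in R6/2 IP and tested in both genotypes, 1526 were so in NCAR too, which is 83.4% of 1829 in R6/2 and 78.7% of 1939 in NCAR. Of those at least 2-fold lower, 1399 were shared, 78.9% of 1773 in R6/2 and 77.1% of 1815 in NCAR. Slc1a2 had a ratio of 3.5 in R6/2 and 3.36 in NCAR, Sox9 2.99 and 2.85, Cx3cr1 -4.84 and -4.91, and Htt 0.85 and 0.65. None of these 4 was called for a difference (adjusted p = 0.97, 0.966, 0.988 and 0.929), which does not show that they were equal.

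A direct test of the difference between the R6/2 and NCAR ratios called 24 of 15633 genes. The ratio was higher in R6/2 in 16 genes (0.102%) and lower in 8 (0.0512%), and 1221 genes had an unadjusted p under 0.05. This count is small and moves with single libraries. It was 128 without NCAR IP replicate 2, of which 24.2% were positive, and 40 without R6/2 input replicate 4. It was 9 to 15 without any one of 10 other libraries, and 16 to 21 without R6/2 IP replicate 3 or 4, NCAR IP replicate 3 or NCAR input replicate 1. All 24 genes remained called without NCAR IP replicate 2. With sample weights 628 genes were called. With the library scaling as deposited 26 were called, of which 53.8% were positive, where the split of the 24 was 66.7%.

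**Figure D5:**
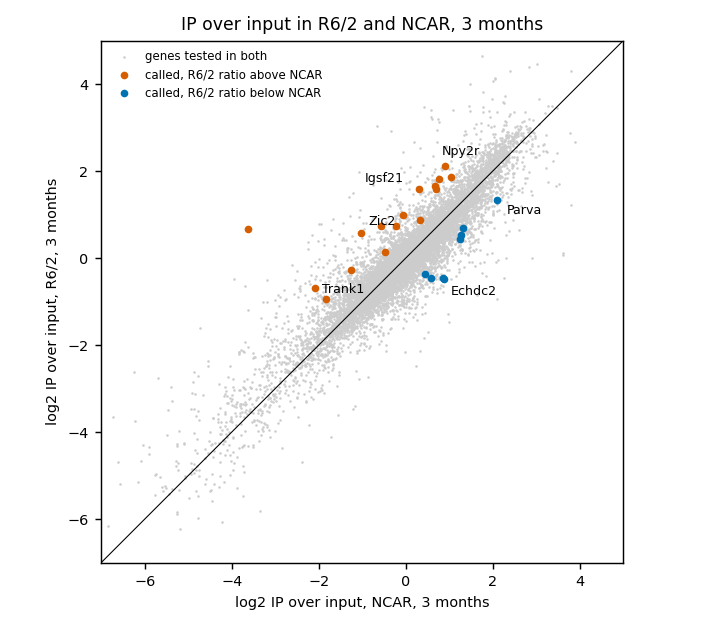
Each point is a gene tested in both genotypes at 3 months, with its log2 IP over input ratio in R6/2 on the vertical axis and in NCAR on the horizontal axis, and the line marks equal ratios. Of the 24 genes called for the difference, 16 lie above the line and 8 below. Foxf1 lies farthest from it, at 0.67 in R6/2 and -3.62 in NCAR.

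The largest of the 24 differences was that of Foxf1, a forkhead factor, which lies under the mean of 5 CPM asked of genes named by rule and is given after its value was seen. On 1 scale for the 16 libraries it had 2.43, 2.03, 2.56 and 2.37 CPM in R6/2 IP and 2.07, 0.758, 1.71 and 1.65 CPM in R6/2 input, against 0.122, 0.0234, 0.151 and 0.127 CPM in NCAR IP and 0.801, 1.34, 1.68 and 1.04 CPM in NCAR input. The 4 NCAR IP libraries were far below all others. The difference was 4.34 ± 0.67 (adjusted p = 0.012), a fitted value that rests on very few reads in NCAR IP and depends on the prior count.

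In 19 of the 24 genes the R6/2 to NCAR difference was larger in the input libraries than in the IP libraries. Levels in the comparison of genotypes share 1 scaling over the 16 libraries. Sorcs2, a sorting receptor that binds proneurotrophins, stood at 204, 233, 169.5 and 191 CPM in R6/2 IP and 52.8, 54.6, 53.5 and 60.9 CPM in R6/2 input. In NCAR it stood at 229, 215, 207 and 205 CPM in IP and 128, 122, 126 and 133 CPM in input. The IP levels of the genotypes overlapped and the input levels did not, R6/2 being lower. The difference of log2 ratios was 1.09 ± 0.13 (adjusted p = 0.00307), and it was called in all 22 alternative fits.

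Of the 18 genes named by rule, 5 others kept their call in all 22 alternative fits, and 4 of these 5 differed more in input than in IP. Igsf21, an adhesion protein of inhibitory synapses, had 30.8, 29.0, 44.2 and 41.7 CPM in R6/2 IP and 12.9, 10.3, 11.7 and 12.6 CPM in R6/2 input, against 50.2, 55.2, 43.2 and 58.9 CPM in NCAR IP and 47.7, 42.0, 36.1 and 43.8 CPM in NCAR input (1.31 ± 0.20). The R6/2 input libraries were all far below the NCAR input libraries, while the IP libraries overlapped. Fam117a, of unknown function, and the guidance molecule Sema5b had differences of 1.34 ± 0.19 and 0.99 ± 0.14. Parva, an adaptor of integrin adhesions, had 100.3, 98.0, 107 and 102 CPM in R6/2 IP and 38.7, 38.3, 44.8 and 37.1 CPM in R6/2 input, against 84.5, 84.9, 89.4 and 80.7 CPM in NCAR IP and 20.0, 19.9, 19.5 and 20.3 CPM in NCAR input (-0.73 ± 0.11). Here every R6/2 input library was above every NCAR input library. Rab21, a GTPase of endosomes, had a difference of -0.69 ± 0.10.

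The other 12 named genes lost their call in 1 to 15 of the 22 alternatives. Zic2, a zinc finger factor of development, had the largest difference of these, and in it IP differed more than input. It had 10.5, 12.3, 15.9 and 19.5 CPM in R6/2 IP and 9.90, 8.88, 11.9 and 7.12 CPM in R6/2 input, against 2.77, 3.46, 2.95 and 3.20 CPM in NCAR IP and 4.74, 7.24, 6.65 and 7.08 CPM in NCAR input. Every R6/2 IP library was several times the NCAR IP libraries (1.64 ± 0.29, adjusted p = 0.0326, lost in 12 of 22). Trank1 differed by 1.45 ± 0.22, the peptide receptor Npy2r by 1.25 ± 0.22, Gpr153 by 1.09 ± 0.20, the ectonucleotidase Entpd1 by 1.03 ± 0.18 and the growth factor Hbegf by 1.01 ± 0.16. On the negative side stood Echdc2 at -1.31 ± 0.23, Wbscr27 at -1.28 ± 0.24, Samd14 at -1.0 ± 0.18, Nudt4 at -0.78 ± 0.15, Ppp1r26 at -0.76 ± 0.14 and the Hippo kinase Lats2 at -0.59 ± 0.11.

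None of the gene lists held a gene called for the difference in the fit of 16 libraries. The oligodendrocyte lineage had the largest shift of a cell type list, with 5 of 20 members higher, 8 lower and a median of -0.19 in R6/2, and 10 higher, 1 lower and 0.73 in NCAR. The difference was negative in 17 of 20, with a median of -0.95, beside 0.03 over all genes. Mbp had a ratio of -1.39 in R6/2 and -0.04 in NCAR (adjusted p = 0.293), and Mobp -2.0 and -0.45 (adjusted p = 0.184). Pdgfra had 1.87 in R6/2 and 1.82 in NCAR. The summed level of the 20 genes on the common scale was 3146, 4356, 2726 and 2918 CPM in R6/2 IP, against 10700, 4828, 14250 and 11350 CPM in NCAR IP. NCAR IP replicate 2 was thus near the R6/2 libraries, and the other 3 were far above. That library was singled out by the level of these same genes, so the calls and p-values without it are a description and no test. Without NCAR IP replicate 2, 10 of the 20 genes were called, all with a lower ratio in R6/2, and the list's median difference was -1.33. Among them Mbp had a difference of -1.72 (adjusted p = 0.00097), Mobp -1.92 (adjusted p = 0.000125) and Mog -1.70 (adjusted p = 0.0152), while the precursor genes Pdgfra and Cspg4 had 0.17 and 0.14 (adjusted p = 0.891 and 0.893). In input the sums were 4289, 4670, 4964 and 4756 CPM in R6/2, against 6521, 7350, 6547 and 7113 CPM in NCAR.

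Medium spiny neuron genes stood further apart between the genotypes in summed level than in ratio. The difference in level was not tested for any list in this paragraph. Their median ratio was -0.92 in R6/2 and -0.99 in NCAR, and the median difference was 0.09. On the common scale the 23 genes summed to 3619 to 4704 CPM in R6/2 IP, against 7821 to 12800 CPM in NCAR IP. In input they summed to 7154 to 8315 CPM in R6/2, against 20530 to 21790 CPM in NCAR. Interferon response genes had medians of 1.41 in R6/2 and 1.63 in NCAR, with a lower ratio in R6/2 in 14 of 15 genes and none called. Their summed level was 470.8 to 696.4 CPM in R6/2 IP, against 1628 to 3601 CPM in 3 NCAR IP libraries and 1169 CPM in NCAR IP replicate 2. In input it was at most 241.3 CPM in R6/2, against 1140 and 1183 CPM in NCAR input replicates 2 and 3 and 355.4 and 424.3 CPM in replicates 1 and 4. Other lists moved with it. Reactive astrocyte genes summed to 1345 to 1814 CPM in R6/2 IP, against 2671 to 10280 CPM in NCAR IP. In input they summed to at most 395.6 CPM in R6/2, against 1908 and 2392 CPM in NCAR input replicates 2 and 3 and 679.2 and 1117 CPM in replicates 1 and 4. NCAR input replicates 2 and 3 are also those with the highest microglial sums, and the part of microglial RNA in these sums was not tested.

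Rpl22 had a smaller ratio in R6/2 than in NCAR, 1.33 and 2.20, and the difference of -0.83 ± 0.37 was not called (adjusted p = 0.59). On the common scale it had 274, 256, 481 and 335 CPM in R6/2 IP, against 663, 1367, 797 and 1436 CPM in NCAR IP. In input it had 155, 112, 113 and 138 CPM in R6/2, against 254, 287, 229 and 147 CPM in NCAR. The IP levels of the genotypes did not overlap and the input levels did. The level in IP alone was not tested here. Astrocyte markers had medians of 2.68 in R6/2 and 2.33 in NCAR, and microglial genes -4.84 and -4.91. The difference was positive in 27 of 30 astrocyte markers (median 0.323) and 12 of 15 microglial genes (median 0.317), beside 0.03 over all genes. Without NCAR IP replicate 2 the median differences were 0.335 and 0.033.

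Age gave no called difference within R6/2. Between 3 and 2 months 0 of 15541 genes (0%) were called by limma with an intensity trend, and 608 had an unadjusted p under 0.05. Voom and sample weights called 0 as well, with 559 and 2405 genes at an unadjusted p under 0.05. The ratios of members are therefore given side by side, with the 1 month libraries under another number in the labels, which cannot be told apart from age. At 1, 2 and 3 months Slc1a2 had 4.45, 3.86 and 3.5, and Gja1 3.79, 3.19 and 2.97. Rpl22 had 3.24, 2.03 and 1.33, and Sox9 4.37, 3.38 and 2.99. Each of these 4 had its lowest ratio at 3 months, with no test of the order.

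Chat had 2.75, 2.75 and 2.60 at 1, 2 and 3 months, Cx3cr1 -4.55, -4.62 and -4.84, and Pdgfra 1.49, 1.64 and 1.87. Median ratios of the astrocyte markers were 3.15, 2.96 and 2.68, and all 30 were higher in IP at each age. Of the genes at least 2-fold higher at 3 months, 1764 were so at 2 months, which is 95.9% of 1839 at 3 months and 76.0% of 2321 at 2 months. With 1 month 1704 were shared, 92.9% of 1834 at 3 months and 68.0% of 2506 at 1 month.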

How the data were processed

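Polyadenylated RNA of IP and input was sequenced, and the authors deposited log2 CPM values per gene, with a prior of 0.25 reads scaled by library size. STAR, HTSeq, edgeR, limma and the mm10 build are named, without versions, per the submitters' processing notes. Reads were recovered from the deposited log2 CPM values, and all came out whole within 0.01. Genes with fewer than 10 reads at the median depth in 4 libraries, or fewer than 15 in all, were left out. Libraries were rescaled within each fit by a trimmed mean of log ratios (30% and 5% trimmed) and compared with limma 3.58.1 (R 4.3.3, intensity trend, Benjamini-Hochberg over all genes tested), tested on simulated data. Groups follow the labels, and the difference between genotypes or ages was the interaction term.

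Genes named were the 15 highest and lowest ranked, up to 10 differences each way, family members, the 5 members of each list with the smallest p, and members opposite to their list. The text gives most of these, and a few are not reported here. Glul, Abat, Kcnj10, Nfia, Id4, Itpr1, Thbs4, S100b, Drd2, Pde10a, Syn1, Sst, Npy, Mog, Malat1 and Rps20 were chosen after their values were seen. Members and lists were chosen with earlier results of these data known. GENCODE vM21 gave classes and coordinates.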

Additional observations from a re-analysis of the deposited data

Results flagged for a closer look

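In 15 of 306 groups of 4 libraries 1 library lay far from the other 3, by Dixon's ratio of gap to range at its 95% critical value. Chance alone gives about 1 in 20. R6/2 input replicate 4 stood apart in Dcn (6.13 CPM, the others 11 to 12.2), Nfia (17.1 CPM, the others 29.8 to 31.8), Pde10a (481 CPM, the others 557 to 570), Elavl2 (35.5 CPM, the others 41.7 to 42.9), Eif4g1 (280 CPM, the others 345 to 358) and Atp5a1 (1200 CPM, the others 914 to 947). R6/2 IP replicate 1 stood apart in Selplg (0.786 CPM, the others 1.07 to 1.12), Cd14 (0.116 CPM, the others 0.341 to 0.394) and Srgn (0.155 CPM, the others 0.556 to 0.72). R6/2 IP replicate 2 stood apart in Vim (288 CPM, the others 198 to 208). R6/2 input replicate 3 stood apart in Aldoc (392 CPM, the others 508 to 527) and Foxj1 (16 CPM, the others 10.9 to 11.6). R6/2 IP replicate 3 stood apart in Gpr153 (24.6 CPM, the others 31.1 to 32.1). R6/2 IP replicate 4 stood apart in Bin2 (0.246 CPM, the others 0.371 to 0.399). R6/2 input replicate 1 stood apart in Itpr1 (977 CPM, the others 812 to 836).

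The IP over input ratio differed between R6/2 and NCAR by the interaction term, in log2 as R6/2 minus NCAR, in 18 genes of at least 5 CPM. It was higher in R6/2 in Zic2 (1.64), Trank1 (1.45), Fam117a (1.34), Igsf21 (1.31), Npy2r (1.25), Gpr153 (1.09), Sorcs2 (1.09), Entpd1 (1.03), Hbegf (1.01) and Sema5b (0.99). It was lower in R6/2 in Echdc2 (-1.31), Wbscr27 (-1.28), Samd14 (-1.0), Nudt4 (-0.78), Ppp1r26 (-0.76), Parva (-0.73), Rab21 (-0.69) and Lats2 (-0.59).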

How the results depend on the processing

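The IP over input counts in R6/2 stayed within 1.5 times under every alternative run, with 7494 to 8786 genes called when 1 library was left out, 9792 with sample weights and 7787 at a mean of at least 1 CPM. All named genes kept their direction there except 5 that were never called in the opposite one. Atp1b1 was at -0.016 with the scaling as deposited and with 8 groups in 1 fit, and -0.005 to 0.079 with 1 library left out. Ndrg3 was at -0.045 and Ndrg4 at 0.098 with sample weights, and Ndrg4 at -0.136 to 0.04 with 1 library left out. Itpr1 was at -0.014 with the scaling as deposited and with 8 groups in 1 fit, and -0.091 to 0.235 with 1 library left out. Calr was at -0.093 with sample weights and -0.008 to 0.334 with 1 library left out. The count of differences between R6/2 and NCAR, 24, with 16 positive and 8 negative, was 628 with sample weights (357 and 271), and voom called 4 negative genes. With 1 library left out it was 9 to 128 in all, 7 to 31 positive and 2 to 97 negative. The cause was not tested. No paired analysis was possible because the labels tie no IP library to an input library. Genes near 1 CPM rest on few reads, and ratios of the lowest genes are the least exact.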

Other observations

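Of the chaperone list, whose counts are given above, 5 other members called higher act in the endoplasmic reticulum. Canx, a lectin chaperone, had 1025 ± 64.4 CPM in IP and 484 ± 19.4 CPM in input (1.08 ± 0.09), the stress-inducible Hspa5 (BiP) 461 ± 39.1 CPM in IP and 273 ± 10.5 CPM in input (0.75 ± 0.09) and Hsp90b1 531 ± 60.1 CPM in IP and 325 ± 51.2 CPM in input (0.72 ± 0.13). The disulfide isomerases Pdia4 and Pdia3 had ratios of 0.90 ± 0.09 and 0.78 ± 0.12. These genes, and all others in this paragraph and the next, were chosen after their values were seen. A further member of that compartment, Calr, was not called (0.19 ± 0.23, adjusted p = 0.511).

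Of the 11 higher oxidative phosphorylation genes, 3 more are given here. Ndufs1 of complex I averaged 319 ± 31.3 CPM in IP and 168 ± 15.3 CPM in input (0.92 ± 0.10), Uqcrc1 of complex III 379 ± 43.0 CPM in IP and 213 ± 12.0 CPM in input (0.82 ± 0.10) and Atp5a1 of the ATP synthase 1802 ± 211 CPM in IP and 998 ± 134 CPM in input (0.85 ± 0.13). Of the translation factors, Eif4ebp1, an inhibitor of cap-dependent translation, had the highest ratio, 1.48 ± 0.26, and Eef1g, a subunit of an elongation factor, the lowest, -0.78 ± 0.12. The immediate early genes Egr1 and Fosb were lower, at -0.76 ± 0.18 and -1.26 ± 0.23. Of 13 tested histone genes 2 were higher and 2 lower, no larger shares than over all genes (27.3% and 27.8%). With 1 library left out 1 to 5 were lower (1 without IP replicate 3 or 4, 5 without input replicate 2). None of 13 mitochondrially encoded genes was in the comparison. Structural small RNAs had a median ratio of -2.79 in R6/2 and -5.06 in NCAR, with no gene called for the difference. The difference was positive in 8 of 8 genes, with a median of 1.4, beside 0.03 over all genes. In R6/2 at 1 and 2 months the medians were -5.87 and -3.62 over the genes tested at each age, with no test of the order.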
